A study of Mus musculus with 60 samples.

Results

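The genes described here are 8 markers that are used to recognise or sort cancer-associated fibroblasts (CAFs), the activated fibroblasts of tumours: Fap, Thy1, Pdpn, S100a4, Ly6a, Cd34, Dpp4 and Eng. They were chosen by gene symbol, each symbol matched 1 of the 48440 genes listed, and all 8 were listed in each of the 3 count tables of the study. Bulk RNA sequencing had measured mouse CAFs, called tCAFs in the labels with no account of the prefix. The aggregate table holds multicellular aggregates of tCAFs with the 344SQ line, tCAFs with the 393P line, and tCAFs alone (3 replicates each). The shRNA table holds aggregates of tCAFs with 344SQ_shZEB1 cells, whose shRNA is named for Zeb1, and of tCAFs with 344SQ_shCTL cells, which carry a control shRNA (3 replicates each). The Boyden table holds tCAFs grown in a Boyden chamber, where a porous membrane separates the cell populations, with 344SQ cells, with 393P cells, or alone (5 biological replicates each, with 3 technical libraries per replicate that were summed here). 344SQ and 393P are mouse lung adenocarcinoma lines, the first known as metastatic and the second as poorly metastatic. The labels state that a flow cytometric sort for CAFs preceded lysis. The titles of the aggregates of CAFs alone carry the term GFP, the name of a green fluorescent protein, without saying how it was used. No label gives the sort markers, the duration of culture, the age and strain of the source animals or the origin of each replicate. The p-values therefore measure the spread between these samples, which may be technical.

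Fibroblast activation protein, encoded by Fap, is a membrane-bound serine protease that cuts after proline, and Dpp4 is its closest relative. Thy1, Pdpn, Ly6a and Cd34 encode cell surface glycoproteins that take part in adhesion and motility or mark fibroblast and progenitor subsets, and endoglin, encoded by Eng, is a co-receptor for ligands of the TGF-beta and BMP family. S100a4, also called fibroblast-specific protein, encodes a small calcium-binding protein of the cytoplasm that is also secreted, so it is a fibroblast marker but no membrane protein.

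The aggregate libraries held 757717 to 1258751 counts, the shRNA libraries 739530 to 2144803, and the Boyden sums 4182944 to 8542262. Boyden depth differed by group, at 4182944 to 5857925 counts with 344SQ, 6227570 to 7126107 with 393P and 6734110 to 8542262 in CAFs alone. The fibroblast identity of the libraries was checked with 18 markers, of which 17 or 18 had counts in every group. Their summed level, in CPM (counts scaled to a common library total), was 21817 to 34435 in the aggregates, 6402 to 30050 in the shRNA table and 29584 to 37646 in the Boyden table. Some markers of other cell types were at or near 0 in the aggregates: Cdh5 (endothelial) and Ptprc (leukocyte) had 0 counts in all 9 libraries, and Epcam (carcinoma) had 0 or 1. Others were not: the epithelial keratin Krt8 reached 39.3 CPM and the Notch receptor Notch3 162 CPM in aggregates with 393P, and the macrophage marker Cd68 was at 21.3 to 27.3 CPM in CAFs alone. The shRNA libraries stood apart. There, 19 of 20 carcinoma markers had counts in both groups, and the summed carcinoma level was 144 to 1297 CPM in shZEB1 aggregates and 121 to 1746 CPM in shCTL aggregates. In bulk libraries, fewer cells of a type and less RNA per cell cannot be told apart.

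Levels of different genes were compared per kilobase of annotated exons (RPKM). In aggregates of CAFs alone, the order was S100a4 (70.2 ± 26.8 RPKM, SD, n = 3), Thy1 (56.0 ± 7.20), Pdpn (24.6 ± 13.5), Eng (8.61 ± 1.93), Cd34 (3.99 ± 1.32), Ly6a (1.96 ± 1.74) and Fap (1.61 ± 0.643), and Dpp4 had no count. The ranges of mean ± SD of S100a4 and Thy1 overlapped, and the range of Ly6a overlapped those of Cd34 and Fap, which did not overlap each other. In aggregates with 393P, Thy1 led with 236 ± 38.4 RPKM, S100a4 followed with 75.0 ± 5.93, and Fap came next with 19.2 ± 3.87, level with Pdpn at 16.9 ± 2.23. In the Boyden chamber S100a4 led in each group, with 284 ± 69.0 RPKM with 344SQ, 303 ± 28.8 with 393P and 201 ± 14.3 in CAFs alone (n = 5 each). Fap was seventh there, at 0.492 ± 0.10, 0.467 ± 0.143 and 0.309 ± 0.0962 RPKM in the same groups. The tables were normalized separately, so levels in different tables are given side by side without a test.

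**Figure D1:**
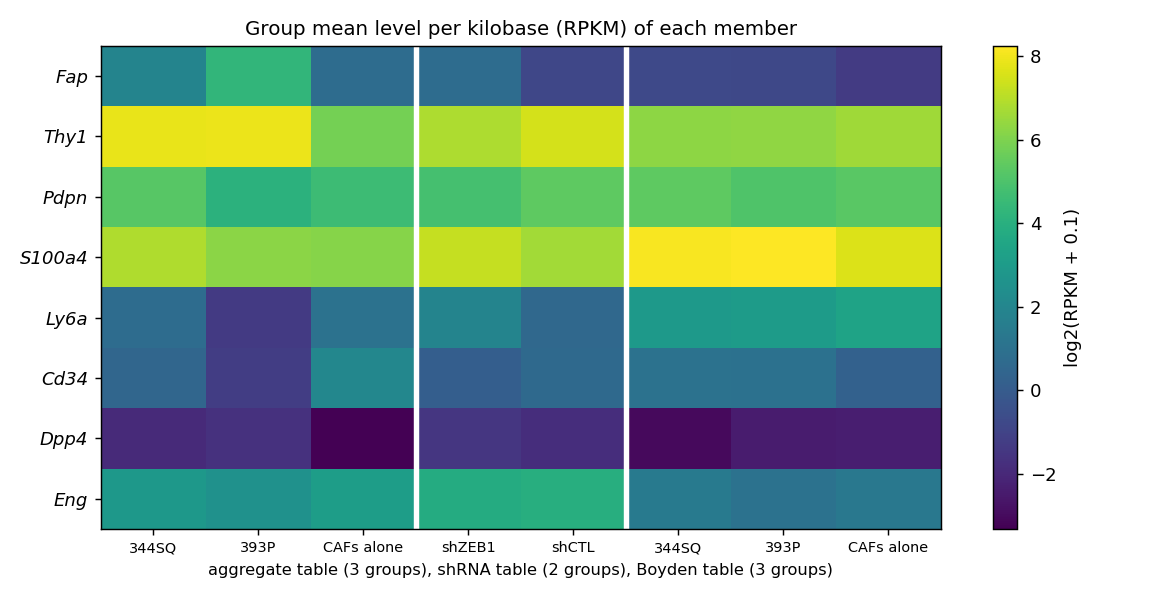
Group mean level of the 8 genes in log2(RPKM + 0.1), by colour, with genes down the page and the 8 groups across, in 3 blocks for the aggregate, shRNA and Boyden tables. Thy1 and S100a4 are bright in all blocks, Dpp4 is dark in all, and Fap is brightest in aggregates with 393P, at 19.2 RPKM.

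Fap and Thy1 were called changed in contact culture, S100a4 and Ly6a across the membrane, and Cd34 and Pdpn in both formats. A call in 1 format only does not show that the formats differ, and Ly6a was not tested in the aggregates. In aggregates with 393P, 3 of the 6 genes tested were called changed at an adjusted p under 0.05: Fap and Thy1 were higher and Cd34 was lower than in CAFs alone, where 10.9% of all genes tested were called (5.61% higher and 5.34% lower). In aggregates with 344SQ, 2 of 6 were called, Thy1 higher and Cd34 lower, with 5.98% of all genes called (3.45% higher and 2.53% lower). Between the lines, 2 of 6 were called in aggregates with 344SQ against 393P, Fap lower and Pdpn higher, with 4.19% of all genes called (2.28% higher and 1.91% lower). In the Boyden chamber, 3 of 7 were called with each line. S100a4 and Cd34 were higher with 393P and Pdpn was lower (15.6% of all genes called, 7.68% higher and 7.91% lower), and S100a4 and Cd34 were higher with 344SQ and Ly6a was lower (14.7% of all genes called, 7.36% higher and 7.39% lower). With 344SQ against 393P in the chamber, 1 of 7 was called, Pdpn, which was higher (4.02% of all genes called, 2.57% higher and 1.45% lower). Between shZEB1 and shCTL aggregates 0 of 5 were called (0.0% of all genes called). These counts cover only genes past the low-count filter: Ly6a and Dpp4 did not pass it in the aggregate and shRNA tables, Fap did not pass it in the shRNA table, and Dpp4 did not pass it in the Boyden table.

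Fap (ENSMUSG00000000392.17, chr2:62500943-62574075 of GRCm38, minus strand) differed between the 2 lines in contact culture. It had 24.7, 18.2 and 18.7 TMM-scaled CPM in aggregates with 344SQ, 132, 88.8 and 106 CPM in aggregates with 393P, and 9.48, 5.29 and 12.5 CPM in CAFs alone. The 393P libraries lay far above both other groups, and the 344SQ libraries lay above CAFs alone with no overlap. Fap was 11.5-fold higher with 393P than in CAFs alone (log2 change 3.52 ± 0.29 SE, edgeR adjusted p = 1.92e-12), and 2.40 ± 0.26 log2 units lower with 344SQ than with 393P (log2 change -2.40, adjusted p = 4.63e-09). With 344SQ against CAFs alone the log2 change was 1.13 ± 0.36 and missed the threshold (adjusted p = 0.0510); it was called with the replicate block (1.15, adjusted p = 0.0424) and without rRNA-like and mitochondrial genes (1.13, adjusted p = 0.0487). The 393P change lay between 3.30 and 3.78, and the difference between the lines between -2.55 and -2.24, over all alternatives.

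Across the membrane Fap was low. It had 1.91, 2.78, 2.92, 3.50 and 2.82 CPM with 344SQ, 3.49, 3.36, 2.53, 1.52 and 2.32 CPM with 393P, and 1.34, 1.23, 1.54, 2.504 and 2.12 CPM in CAFs alone. The groups overlapped, and neither change passed the threshold (log2 change 0.65 ± 0.28 with 344SQ, adjusted p = 0.122, and 0.58 ± 0.27 with 393P, adjusted p = 0.143). The 393P effect on Fap was larger in the aggregates than in the chamber by 3.02 ± 0.41 log2 units (adjusted p = 1.30e-07), a difference called for 8.97% of all genes (5.29% higher and 3.69% lower in the aggregates). The same difference for 344SQ was 0.53 ± 0.47 (adjusted p = 0.636), where 4.78% of all genes were called (2.63% higher and 2.15% lower).

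Some markers of other cells also differed between the aggregate groups. The carcinoma sums with 344SQ and with 393P overlapped each other, and every co-culture library lay above every library of CAFs alone. The margin was narrow with 344SQ, at 15.88 CPM in its lowest library against 15.85 CPM in the highest of CAFs alone. Of 20 carcinoma markers, 13 had counts with 344SQ, 15 with 393P and 11 in CAFs alone, with summed levels of 15.9 to 36.7, 20.8 to 103 and 8.11 to 15.9 CPM, and Ocln and Sftpc had 0 counts in all 9 libraries. Of 7 mural markers, 2 had counts with 344SQ, 5 with 393P and 4 in CAFs alone, and their summed levels were 17.4 to 25.4, 127 to 165 and 17.2 to 22.3 CPM. Nearly all of the mural sum was Notch3, a Notch receptor, which was higher with 393P than in CAFs alone (log2 change 3.00 ± 0.23, adjusted p = 3.98e-13), while Rgs5, a defining mural marker, had 0 or 1 counts in every aggregate library. The 18 fibroblast markers summed to 21817 to 26368 CPM with 344SQ, 30332 to 34435 CPM with 393P and 22816 to 26414 CPM in CAFs alone. The part of these markers in the Fap, Thy1, Pdpn and Cd34 results was not tested.

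Dpp4 (ENSMUSG00000035000.8, chr2:62330073-62412231, minus strand) lies 88711 bases from Fap on the same strand and encodes a surface peptidase. It had 2, 0 and 1 counts in the aggregates with 344SQ, 2, 0 and 2 counts with 393P, and 0 counts in all 3 libraries of CAFs alone, where a count of 0 allows up to 1.04 CPM over the group. In the shRNA table it had 1, 0 and 7 counts with shZEB1 and 1, 0 and 3 counts with shCTL. In the Boyden sums it had 0 to 3 counts with 344SQ, 2 to 5 with 393P and 3 to 7 in CAFs alone. It was not tested, and changes in it were not detectable at this depth. An antisense gene overlaps 232 exonic bases of Dpp4, so even these few counts are uncertain. Among the 11 genes of the prolyl oligopeptidase family and its relatives, 8 were tested in the aggregates. The share of all genes called was 10.9% with 393P there, and 14.7% with 344SQ and 15.6% with 393P in the chamber. With 393P, Fap was the 1 called higher, and Prcp, a lysosomal prolyl carboxypeptidase, was the 1 called lower (21.6 ± 6.56 against 43.3 ± 20.8 CPM, log2 change -1.01 ± 0.31, adjusted p = 0.0237). The median log2 change of the 8 genes was 0.02, and that of all genes was -0.002. Across the membrane 1 of 8 was called with each line, Prepl, which was lower by 0.22 ± 0.07 with 344SQ (log2 change -0.22, adjusted p = 0.0370) and with 393P (log2 change -0.22, adjusted p = 0.0313).

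Thy1 (ENSMUSG00000032011.4, chr9:44043384-44048579, plus strand), a lipid-anchored glycoprotein that binds integrins, was higher in contact culture with both lines. It had 368, 1098 and 627 CPM in aggregates with 344SQ, 674, 834 and 611 CPM with 393P, and 143, 177 and 183 CPM in CAFs alone. Every co-culture library lay above every library of CAFs alone, and the 344SQ libraries were spread over a wider range than the 393P libraries. The level was 4.16-fold higher with 344SQ (log2 change 2.06 ± 0.38, adjusted p = 0.0150) and 4.23-fold higher with 393P (log2 change 2.08 ± 0.38, adjusted p = 0.00817). The 2 lines differed by -0.02 ± 0.35 log2 units (adjusted p = 0.992). The call with 393P was lost without CAFs alone replicate 1 (log2 change 1.96, adjusted p = 0.0573). The call with 344SQ was lost without CAFs alone replicate 1, 2 or 3 (log2 changes of 1.94, 2.09 and 2.11, adjusted p = 0.0862, 0.0704 and 0.0520). Over all alternatives the adjusted p ran from 1.01e-12 to 0.0862 with 344SQ and from 1.99e-13 to 0.0573 with 393P.

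Across the membrane Thy1 did not pass the test. It had 236, 350, 179, 174 and 217 CPM with 344SQ, 223, 253, 266, 206 and 257 CPM with 393P, and 379, 246, 244, 267 and 294 CPM in CAFs alone. The log2 changes were -0.30 ± 0.19 with 344SQ (adjusted p = 0.322) and -0.25 ± 0.18 with 393P (adjusted p = 0.425). Without 344SQ replicate 2, the highest of its group, the change with 344SQ was -0.51 and was called (adjusted p = 0.0197). The effect of each line on Thy1 was larger in the aggregates than in the chamber, by 2.40 ± 0.41 log2 units for 344SQ (adjusted p = 0.000948) and by 2.41 ± 0.41 for 393P (adjusted p = 0.000455).

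**Figure D2:**
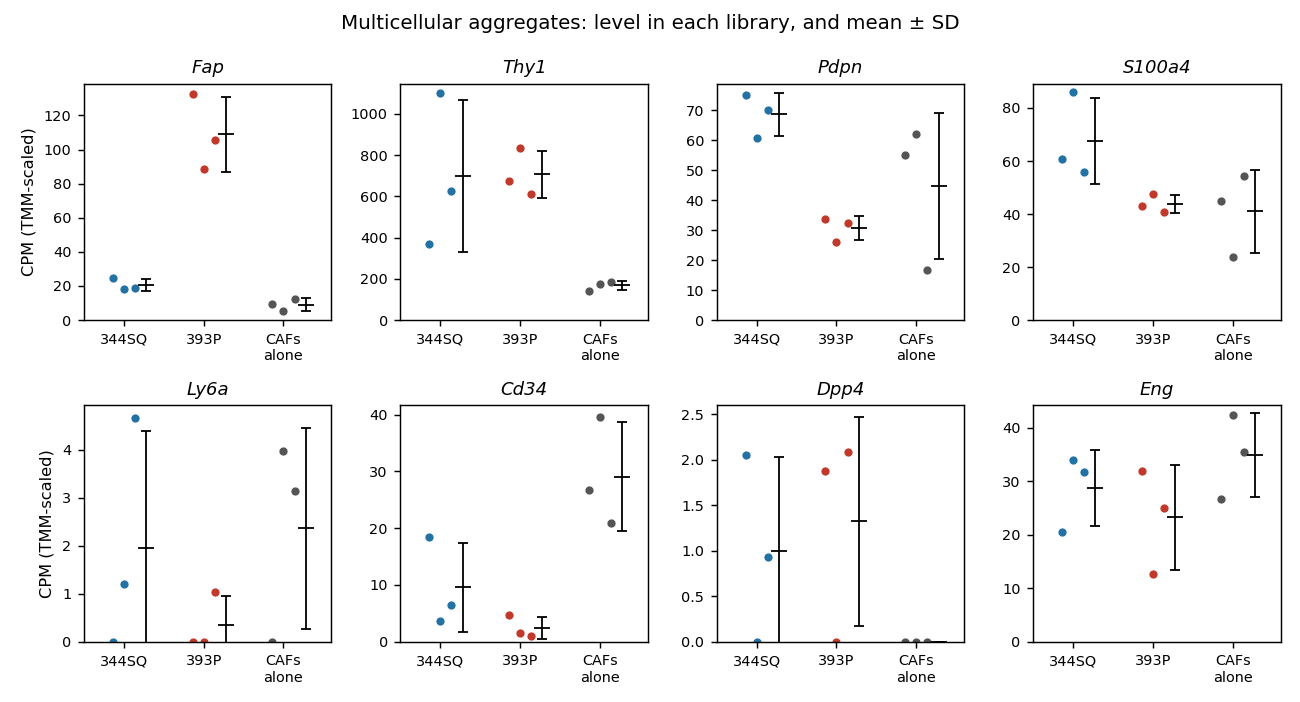
Level of each gene in TMM-scaled CPM on the y axis, by group of the aggregate table (344SQ, 393P, CAFs alone; n = 3 each). Points are libraries and the bars mean ± SD, cut at 0. Fap reaches 88.8 to 132 CPM with 393P, Thy1 lies above CAFs alone with both lines, and Cd34 is highest in CAFs alone.

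Pdpn (ENSMUSG00000028583.14, chr4:143267431-143299564, minus strand) encodes podoplanin, a mucin-like protein that binds CLEC-2 and links to the cytoskeleton through ezrin and moesin. It separated the lines in both culture formats, and in the same direction. In the aggregates it had 75.1, 60.6 and 70.0 CPM with 344SQ, 33.8, 26.2 and 32.4 CPM with 393P, and 55.1, 62.1 and 16.7 CPM in CAFs alone. The 344SQ libraries all lay above the 393P libraries, while CAFs alone spanned both because of replicate 3. Pdpn was 2.24-fold higher with 344SQ than with 393P (log2 change 1.16 ± 0.30, adjusted p = 0.0160). Against CAFs alone the change was 0.63 ± 0.29 with 344SQ (adjusted p = 0.258) and -0.53 ± 0.31 with 393P (adjusted p = 0.338). Without CAFs alone replicate 3 the change with 393P was -0.94 and was called (adjusted p = 0.0159). The call between the lines was lost with DESeq2 (log2 change 1.15, adjusted p = 0.0510), without 344SQ replicate 1 (1.09, adjusted p = 0.0715), without 344SQ replicate 3 (1.15, adjusted p = 0.0638) and without 393P replicate 2 (1.05, adjusted p = 0.128), and over all alternatives the adjusted p ran from 0.000441 to 0.128.

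Across the membrane Pdpn had 74.4, 81.1, 77.5, 71.0 and 77.7 CPM with 344SQ, 54.9, 60.0, 60.5, 62.2 and 66.8 CPM with 393P, and 75.3, 69.3, 67.9, 66.5 and 73.6 CPM in CAFs alone. The 344SQ and 393P replicates did not overlap, which held for 4.46% of all genes. Pdpn was 1.25-fold higher with 344SQ than with 393P (log2 change 0.33 ± 0.07, adjusted p = 0.00268). This call was lost with technical library 1 or 2 alone (0.28 and 0.33, adjusted p = 0.531 and 0.172), and over all alternatives the adjusted p ran from 0.000432 to 0.531. With 393P it was lower than in CAFs alone by a small margin (log2 change -0.21 ± 0.07, adjusted p = 0.0278), and with 344SQ the change was 0.12 ± 0.07 (adjusted p = 0.262). The call with 393P was lost without CAFs alone replicate 1 or 5 (log2 changes of -0.18 and -0.20, adjusted p = 0.0821 and 0.0655), without 393P replicate 1 or 2 (-0.18 and -0.21, adjusted p = 0.0929 and 0.0548) and without the low-count filter (-0.22, adjusted p = 0.0575), and with technical library 1 or 2 alone (0.0028 and -0.17, adjusted p = 0.996 and 0.593). Over all alternatives its adjusted p ran from 0.0181 to 0.996. The aggregate and Boyden changes of Pdpn did not differ past the threshold (difference of 0.57 ± 0.23 for 344SQ, adjusted p = 0.187, and -0.25 ± 0.26 for 393P, adjusted p = 0.647).

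Of 10 podoplanin partners, 8 were tested in each table. The shares of all genes called were 5.98% with 344SQ and 10.9% with 393P in the aggregates, and 14.7% and 15.6% in the chamber. In aggregates with 393P, 3 were higher and 0 lower: Msn, which encodes moesin (1133 ± 230 against 711 ± 85.9 CPM, log2 change 0.67 ± 0.17, adjusted p = 0.00387), the tetraspanin gene Cd9 (log2 change 1.01 ± 0.29, adjusted p = 0.0166) and the small GTPase gene Rhoa (log2 change 0.57 ± 0.18, adjusted p = 0.0267). Their list had a median log2 change of 0.28, against -0.002 over all genes. With 344SQ 0 of 8 were called in the aggregates. Across the membrane Cd44, the hyaluronan receptor, was higher and Ezr, which encodes ezrin, was lower with each line. Cd44 had 401 ± 24.6 CPM with 344SQ, 331 ± 14.8 CPM with 393P and 274 ± 14.8 CPM in CAFs alone (log2 changes against CAFs alone of 0.55 ± 0.06 with 344SQ, adjusted p = 3.33e-08, and 0.27 ± 0.06 with 393P, adjusted p = 0.00143). Ezr had 353 ± 25.0 CPM with 344SQ, 357 ± 22.9 CPM with 393P and 424 ± 39.2 CPM in CAFs alone (log2 changes of -0.26 ± 0.07 and -0.25 ± 0.07, adjusted p = 0.00602 and 0.00937).

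Cd34 (ENSMUSG00000016494.9, chr1:194938819-194961279, plus strand), a sialomucin of progenitor, endothelial and resting fibroblast cells, changed in opposite directions in the 2 culture formats. In the aggregates it had 18.5, 3.64 and 6.53 CPM with 344SQ, 4.69, 1.59 and 1.04 CPM with 393P, and 26.7, 39.6 and 20.9 CPM in CAFs alone. These levels rest on 28 counts in all with 344SQ, 8 with 393P and 81 in CAFs alone, and neither co-culture group overlapped CAFs alone. In aggregates with 344SQ, 4 genes had values that did not overlap CAFs alone (Fap, Thy1, S100a4 and Cd34), and 21.5% of all genes did. With 393P these were 3 (Fap, Thy1 and Cd34), and 26.0% of all genes did not overlap. Cd34 fell by 1.55 ± 0.44 on the log2 scale with 344SQ (adjusted p = 0.0225) and by 3.49 ± 0.54 with 393P (adjusted p = 6.43e-06). The difference between the lines was 1.94 ± 0.63 (adjusted p = 0.0778), and it was called without 344SQ replicate 2 (2.28, adjusted p = 0.0272) or 393P replicate 1 (2.73, adjusted p = 0.0416).

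The call of Cd34 with 344SQ was lost with DESeq2 (log2 change -1.57, adjusted p = 0.158), without CAFs alone replicate 1 or 2 (-1.62 and -1.30, adjusted p = 0.0543 and 0.159), and without 344SQ replicate 2 or 3 (-1.20 and -1.32, adjusted p = 0.144 and 0.133). Without 344SQ replicate 1 the change was -2.42, and over all alternatives the adjusted p ran from 0.00165 to 0.159. The call with 393P was kept in all alternatives, with log2 changes between -4.29 and -3.19. An antisense gene overlaps 148 exonic bases of Cd34, and reads of the 2 cannot be told apart without strand.

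The summed level of mesothelial markers was also lower in co-culture in the aggregates, where only Bnc1 of them passed the low-count filter. Of 7 such markers, 3 had counts with 344SQ, 5 with 393P and 6 in CAFs alone, and the summed levels were 8.25 to 29.6, 4.53 to 13.1 and 40.9 to 51.1 CPM. Most of this sum was Bnc1, a zinc finger gene of mesothelium and other epithelia. Upk1b had 0 counts in all 9 libraries, while every other marker of this list had counts in CAFs alone. Of 17 leukocyte markers, 9 had counts with 344SQ, 5 with 393P and 9 in CAFs alone, with sums of 16.8 to 30.3, 7.25 to 28.2 and 27.4 to 37.0 CPM. The 13 endothelial markers summed to 3.18 to 10.1, 5.43 to 11.1 and 2.64 to 8.81 CPM in the same groups, with 6 or 7 of them detected, and the groups overlapped. In the Boyden chamber the mesothelial sum was also lower with both lines than in CAFs alone, while Cd34 was higher. The part of the mesothelial and leukocyte markers in the Cd34 result was not tested.

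Cd34 was higher in co-culture in the Boyden chamber. It had 10.9, 15.4, 13.1, 12.0 and 19.2 CPM with 344SQ, 11.7, 13.8, 15.8, 11.3 and 16.2 CPM with 393P, and 6.11, 7.40, 8.62, 9.27 and 9.48 CPM in CAFs alone. Neither co-culture group overlapped CAFs alone. The log2 changes were 0.77 ± 0.16 with 344SQ (adjusted p = 0.000843) and 0.74 ± 0.15 with 393P (adjusted p = 0.00121), and the lines differed by 0.04 ± 0.15 (adjusted p = 0.945). Both calls were kept when each replicate was left out. They were lost with each technical library alone, at log2 changes of 0.52 to 0.92 with 344SQ and 0.57 to 0.91 with 393P. The effect in the aggregates was lower than in the chamber by 2.27 ± 0.42 log2 units for 344SQ (log2 difference -2.27, adjusted p = 0.000166) and by 4.20 ± 0.52 for 393P (log2 difference -4.20, adjusted p = 2.03e-08).

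S100a4 (ENSMUSG00000001020.8, chr3:90603771-90606045, plus strand) rose with Cd34 across the membrane, with both lines. It had 131, 143, 155, 234 and 165 CPM with 344SQ, 158, 182, 160, 196 and 188 CPM with 393P, and 118, 112, 126, 106 and 124 CPM in CAFs alone. Neither co-culture group overlapped CAFs alone, as held for these 2 genes in each comparison (9.93% of all genes with 344SQ and 12.4% with 393P). The log2 changes were 0.49 ± 0.12 with 344SQ (adjusted p = 0.0103) and 0.59 ± 0.12 with 393P (adjusted p = 0.00291), and the lines differed by -0.10 ± 0.12 (adjusted p = 0.778). Without 344SQ replicate 4, the highest of its group, the difference between the lines was -0.26 and was called (adjusted p = 0.0427). The call with 393P was lost with technical library 1 or 2 alone (0.58 and 0.63, adjusted p = 0.101 and 0.185), and the call with 344SQ with technical library 2 or 3 alone (0.73 and 0.29, adjusted p = 0.0835 and 0.154).

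In the aggregates S100a4 had 60.7, 86.1 and 56.0 CPM with 344SQ, 43.2, 47.6 and 40.7 CPM with 393P, and 44.8, 23.8 and 54.4 CPM in CAFs alone. The 344SQ libraries lay above both other groups, but the changes did not pass the test (log2 change 0.68 ± 0.25 with 344SQ, adjusted p = 0.108, 0.07 ± 0.26 with 393P, adjusted p = 0.921, and 0.61 ± 0.24 between the lines, adjusted p = 0.205). The aggregate and Boyden changes of S100a4 did not differ past the threshold (difference of 0.21 ± 0.29 for 344SQ, edgeR adjusted p = 0.820, and -0.45 ± 0.31 for 393P, edgeR adjusted p = 0.433). Between the lines, 3 genes did not overlap in the aggregates (Fap, Pdpn and S100a4), and 17.9% of all genes did not. A protein-coding gene on the same strand overlaps 302 exonic bases of S100a4, so reads there could be assigned to either gene or to none. Of 15 S100 genes, 9 were tested in the Boyden table, and 3 were called higher and 0 lower with each line: S100a4, S100a6 and S100a13. Of all genes tested there, 14.7% were called with 344SQ and 15.6% with 393P. S100a6, a calcium-binding protein found with proliferation and stress, had 616 ± 101 CPM with 344SQ, 667 ± 48.2 CPM with 393P and 490 ± 28.1 CPM in CAFs alone (log2 changes of 0.33 ± 0.08, adjusted p = 0.00675, and 0.45 ± 0.08, adjusted p = 0.000506). The median log2 change of the 9 genes was 0.28 with 344SQ and 0.15 with 393P, against 0.006 and 0.001 over all genes.

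The 250 bases before the start of S100a4 and Cd34, the 2 genes that rose together across the membrane, are shown from RefSeq on GRCm38.p6, both on the plus strand, at chr3:90603520-90603769 and chr1:194938571-194938820. Capitals mark the single TATA box (TATAAA, searched on both strands) of the S100a4 window, which begins 31 bases before the start.
S100a4: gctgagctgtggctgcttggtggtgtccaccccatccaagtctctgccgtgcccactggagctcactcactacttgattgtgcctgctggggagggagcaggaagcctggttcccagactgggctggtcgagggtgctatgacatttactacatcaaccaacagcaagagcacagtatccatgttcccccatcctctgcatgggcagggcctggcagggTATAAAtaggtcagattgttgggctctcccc
Cd34: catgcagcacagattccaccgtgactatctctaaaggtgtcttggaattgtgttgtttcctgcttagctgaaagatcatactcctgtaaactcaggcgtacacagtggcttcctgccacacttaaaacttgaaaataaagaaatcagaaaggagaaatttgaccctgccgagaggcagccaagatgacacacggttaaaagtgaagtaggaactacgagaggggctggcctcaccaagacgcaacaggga
No TATA box was in the Cd34 window, and neither window held an AP-1 motif (TGANTCA), a GC box (GGGCGG) or a ZEB1 E-box (CACCTG), all searched on both strands. Of 32851 promoters of this length, 12.4% held the TATA box, 6.75% the AP-1 motif, 32.7% the GC box and 17.2% the E-box. Promoters of 5 of the 8 genes were matched (Pdpn, S100a4, Cd34, Dpp4 and Eng), and a match is a description of letters only.

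Eng (ENSMUSG00000026814.16, chr2:32646595-32682669, plus strand) passed no test. In the aggregates it had 20.6, 33.9 and 31.7 CPM with 344SQ, 31.9, 12.7 and 25.1 CPM with 393P, and 26.7, 42.3 and 35.5 CPM in CAFs alone, and the 3 groups overlapped. The log2 changes were -0.26 ± 0.31 with 344SQ (adjusted p = 0.763) and -0.58 ± 0.31 with 393P (adjusted p = 0.280). In the Boyden chamber it had 13.002, 14.6, 7.71, 6.99 and 10.3 CPM with 344SQ, 8.52, 7.19, 6.95, 8.22 and 8.84 CPM with 393P, and 10.9, 8.36, 9.81, 9.89 and 9.86 CPM in CAFs alone. The 344SQ replicates fell on both sides of CAFs alone and overlapped those with 393P (log2 change 0.13 ± 0.16 with 344SQ, adjusted p = 0.654, -0.29 ± 0.16 with 393P, adjusted p = 0.232, and 0.42 ± 0.17 between the lines, adjusted p = 0.185). Fpgs, on the opposite strand, overlaps 61 exonic bases of Eng.

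Around Eng, 21 genes of the endoglin receptor complex and BMP targets were followed. In aggregates, 18 were tested, of which 1 was higher and 1 lower with 344SQ, and 3 were higher and 2 lower with 393P. Of all genes tested there, 5.98% were called with 344SQ and 10.9% with 393P. Tgfbr3, which encodes betaglycan, the relative of endoglin, was lower with both lines: it had 265 ± 58.4 CPM with 344SQ, 136 ± 9.91 CPM with 393P and 391 ± 67.0 CPM in CAFs alone (log2 changes of -0.56 ± 0.16, adjusted p = 0.0272, and -1.52 ± 0.17, adjusted p = 3.74e-09). Id3, a BMP target, was higher with both, at 126 ± 32.7, 133 ± 12.9 and 74.1 ± 5.73 CPM in the same groups (log2 changes of 0.76 ± 0.19, adjusted p = 0.00734, and 0.85 ± 0.19, adjusted p = 0.000994). Tgfbr1, the type I TGF-beta receptor, was higher with 393P (72.0 ± 4.55 against 32.5 ± 5.69 CPM, log2 change 1.15 ± 0.23, adjusted p = 0.000372). In the Boyden table all 21 were tested. With 344SQ 4 were higher and 3 lower (14.7% of all genes called), and with 393P 4 were higher and 1 lower (15.6%). There Tgfbr3 was higher with 344SQ (344 ± 11.5 against 252 ± 12.5 CPM, log2 change 0.45 ± 0.06, adjusted p = 7.93e-07), the opposite direction to its change in the aggregates, and the formats differed by -0.97 ± 0.15 log2 units for 344SQ (adjusted p = 5.46e-06). The median log2 change of the list was -0.004 and 0.20 in the aggregates with 344SQ and 393P, and -0.01 with each line in the chamber. Over all genes the medians were -0.007 and -0.002 in the aggregates, and 0.006 and 0.001 in the chamber.

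Ly6a (ENSMUSG00000075602.10, chr15:74994877-74998031, minus strand) encodes Sca-1, a lipid-anchored protein of mouse stem and progenitor cells. It has close relatives in the Ly6 family, so its counts are uncertain. The aggregate table held 0 to 5 counts per library, and in the shRNA table Ly6a had 2, 1 and 17 counts with shZEB1 and 0, 4 and 2 counts with shCTL. It passed the low-count filter in neither, and shZEB1 replicate 3 held most of its counts in the shRNA table. In the Boyden chamber it had 9.75, 7.81, 7.92, 7.65 and 11.3 CPM with 344SQ, 11.2, 7.83, 11.4, 7.15 and 10.3 CPM with 393P, and 12.2, 9.73, 12.3, 12.4 and 15.1 CPM in CAFs alone, and both pairs of groups overlapped. It was lower with 344SQ (log2 change -0.48 ± 0.15, adjusted p = 0.0322), and with 393P the change was -0.37 ± 0.15 (adjusted p = 0.0858). The call with 344SQ was lost in 9 of 19 alternatives: without CAFs alone replicate 3, 4 or 5 (-0.49, -0.48 and -0.40, adjusted p = 0.0527, 0.0552 and 0.106), without 344SQ replicate 2, 3 or 4 (-0.44, -0.45 and -0.44, adjusted p = 0.0584, 0.0829 and 0.0812), and with each technical library alone (-0.48, -0.42 and -0.55, adjusted p = 0.400, 0.415 and 0.179). Over all alternatives the adjusted p ran from 0.0107 to 0.415. The change with 393P was called without CAFs alone replicate 2 (-0.44, adjusted p = 0.0398) and with technical library 3 alone (-0.81, adjusted p = 0.0353). The aggregate and Boyden changes of Ly6a did not differ past the threshold (difference of 0.52 ± 0.95 for 344SQ, edgeR adjusted p = 0.872, and -2.26 ± 1.43 for 393P, edgeR adjusted p = 0.388), with few counts in the aggregates. Of 14 Ly6 family genes, 6 were tested in the Boyden table, of which 1 was higher and 2 lower with 344SQ (14.7% of all genes called). Ly6k was higher with 344SQ (9.77 ± 1.45 against 6.79 ± 0.621 CPM, log2 change 0.53 ± 0.16, adjusted p = 0.0246), and Plaur, the urokinase receptor, was lower with 344SQ (log2 change -0.39 ± 0.11, adjusted p = 0.0147) and with 393P (log2 change -0.53 ± 0.11, adjusted p = 0.00111).

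**Figure D3:**
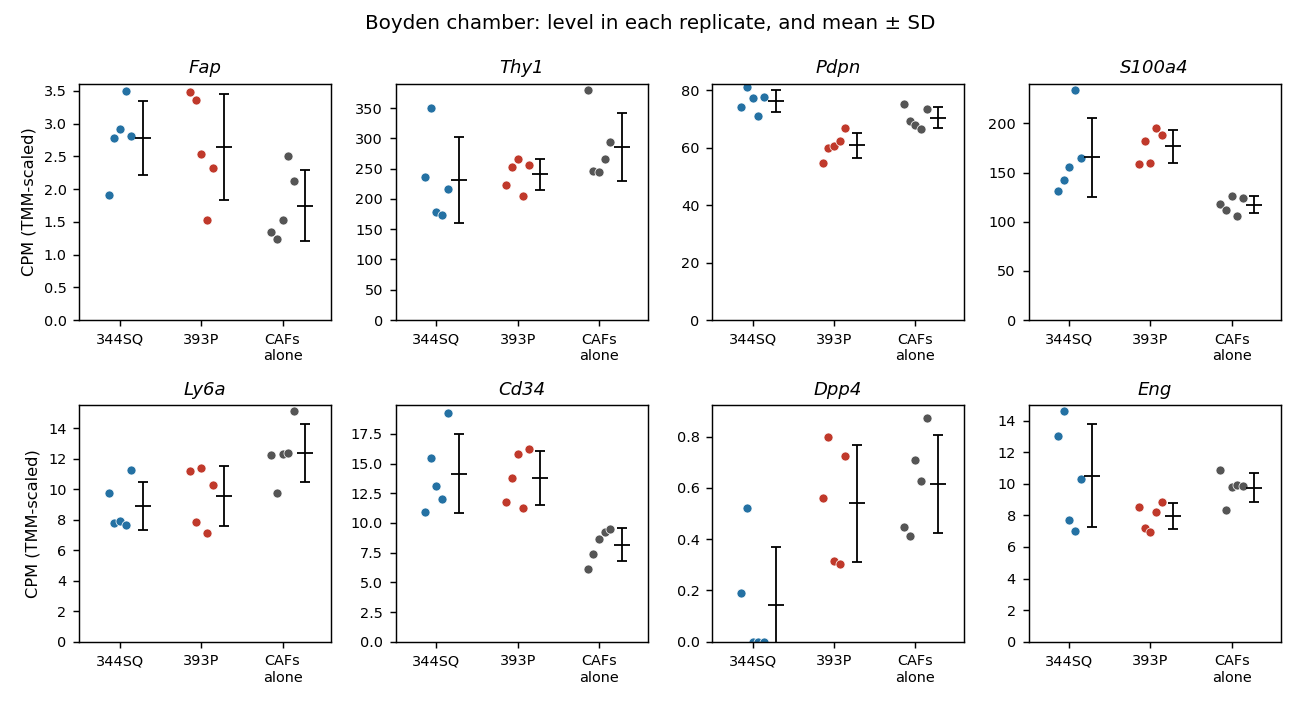
Level of each gene in TMM-scaled CPM on the y axis, by group of the Boyden table (344SQ, 393P, CAFs alone; n = 5 each). Points are biological replicates (sums of 3 technical libraries) and the bars mean ± SD, cut at 0. S100a4 and Cd34 lie above CAFs alone with both lines, and Pdpn is lower with 393P (54.9 to 66.8 CPM) than with 344SQ (71.0 to 81.1 CPM).

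Markers of other cells also differed between the Boyden groups. The 7 mesothelial markers were all detected, and summed to 356 to 447 CPM with 344SQ, 401 to 498 CPM with 393P and 589 to 713 CPM in CAFs alone, so both co-culture groups lay below CAFs alone. Upk1b led the calls, with 88.7 ± 11.5 CPM with 344SQ, 96.1 ± 11.5 CPM with 393P and 175 ± 14.3 CPM in CAFs alone (log2 changes of -0.98 ± 0.09, adjusted p = 2.00e-09, and -0.87 ± 0.08, adjusted p = 4.30e-08). The 13 endothelial markers, of which 8 were detected with 344SQ and 9 in each other group, summed to 9.68 to 12.8, 9.78 to 13.3 and 15.6 to 19.3 CPM, and Cdh5 had 0 or 1 counts. The 20 carcinoma markers (18 detected with each line and 17 in CAFs alone) summed to 32.1 to 59.3, 19.3 to 95.2 and 27.8 to 43.9 CPM, which overlapped. The 18 fibroblast markers, all detected, summed to 29584 to 34828, 31328 to 34574 and 34602 to 37646 CPM. The part of these markers in the S100a4, Cd34, Pdpn and Ly6a results of the chamber was not tested.

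**Figure D4:**
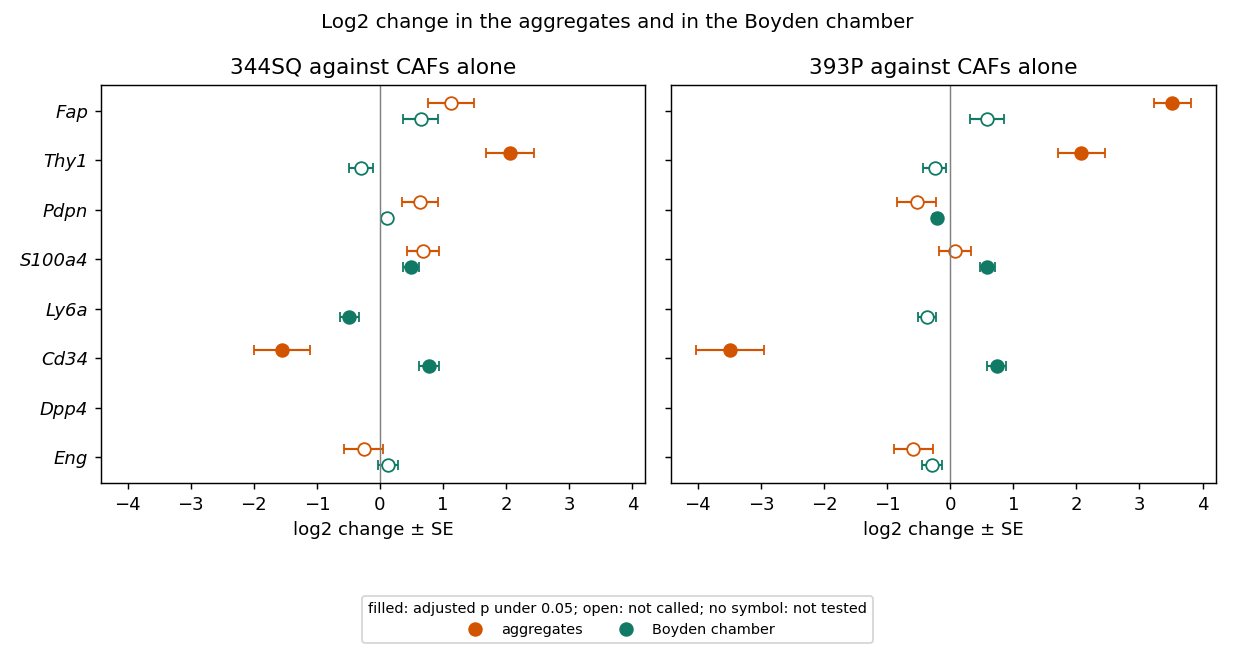
Log2 change against CAFs alone (x axis) with its SE, for 344SQ (left) and 393P (right), with genes down the page. Orange points are aggregates and green points the Boyden chamber; filled points have an adjusted p under 0.05. Cd34 lies left of 0 in the aggregates and right of 0 in the chamber with both lines, and Thy1 passes the threshold in the aggregates (2.06 with 344SQ and 2.08 with 393P).

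Aggregates with 344SQ cells that carried an shRNA against Zeb1 were compared with those that carried the control shRNA. Zeb1 encodes a repressor of epithelial genes. It had 144, 48.4 and 120 CPM in shZEB1 aggregates and 71.8, 105 and 50.3 CPM in shCTL aggregates, but the labels place the shRNA in the cancer cells and the libraries are of sorted CAFs, so Zeb1 does not check the knockdown here. No gene was called by edgeR, and 467 of 7801 genes (5.99%) had an unadjusted p under 0.05. DESeq2 called 27 genes and none of the markers. Thy1 had 328, 490 and 191 CPM with shZEB1 and 286, 1256 and 78.3 CPM with shCTL (log2 change -0.69 ± 0.76, adjusted p = 0.896), a range wide enough that neither a rise nor a fall was detectable. Pdpn had 50.04, 33.7 and 72.4 CPM with shZEB1 and 75.9, 138 and 13.5 CPM with shCTL (log2 change -0.54 ± 0.70, adjusted p = 0.918). Cd34 had 6.58, 7.34 and 7.69 CPM with shZEB1 and 15.0, 8.67 and 7.74 CPM with shCTL. Its groups did not overlap, as for 11.7% of all genes, and it was the 1 tested marker of which this was true (log2 change -0.55 ± 0.78, adjusted p = 0.930).

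S100a4 had 127, 91.0 and 46.1 CPM with shZEB1 and 45.1, 100.1 and 30.9 CPM with shCTL (log2 change 0.58 ± 0.59, adjusted p = 0.877). Eng had 64.5, 54.3 and 46.1 CPM with shZEB1 and 83.4, 53.6 and 48.4 CPM with shCTL (log2 change -0.17 ± 0.53, adjusted p = 0.968). Fap, not tested, had 24.1, 1.47 and 1.28 CPM with shZEB1 and 6.15, 1.58 and 0 CPM with shCTL, so its level with shZEB1 came from replicate 1. The replicates of a group differed more than the groups did, and the biological coefficient of variation was 61.7%, against 16.2% in the aggregate table and 8.58% in the Boyden table. Mural and lung epithelial markers were also present: Rgs5 had 53.0 to 166 CPM with shZEB1 and 99.2 to 155 CPM with shCTL, and Sftpc 15.4 to 143 and 75.0 to 110 CPM in the same groups, and their part in the marker levels was not tested. Among all libraries of the shRNA table, the levels of Thy1, Fap, Pdpn and S100a4 were lowest in shCTL replicate 3. Those of Cd34 and Eng were lowest in that library within the shCTL group only. That library had the highest carcinoma marker sum (1746 CPM) and the lowest fibroblast marker sum (6402 CPM) of the shRNA table. Without the library of each group richest in those markers (shZEB1 replicate 2 and shCTL replicate 3), which was tried after seeing the data, the log2 change of Thy1 was -1.56 (adjusted p = 0.571) and 0 of the markers were called.

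**Figure D5:**
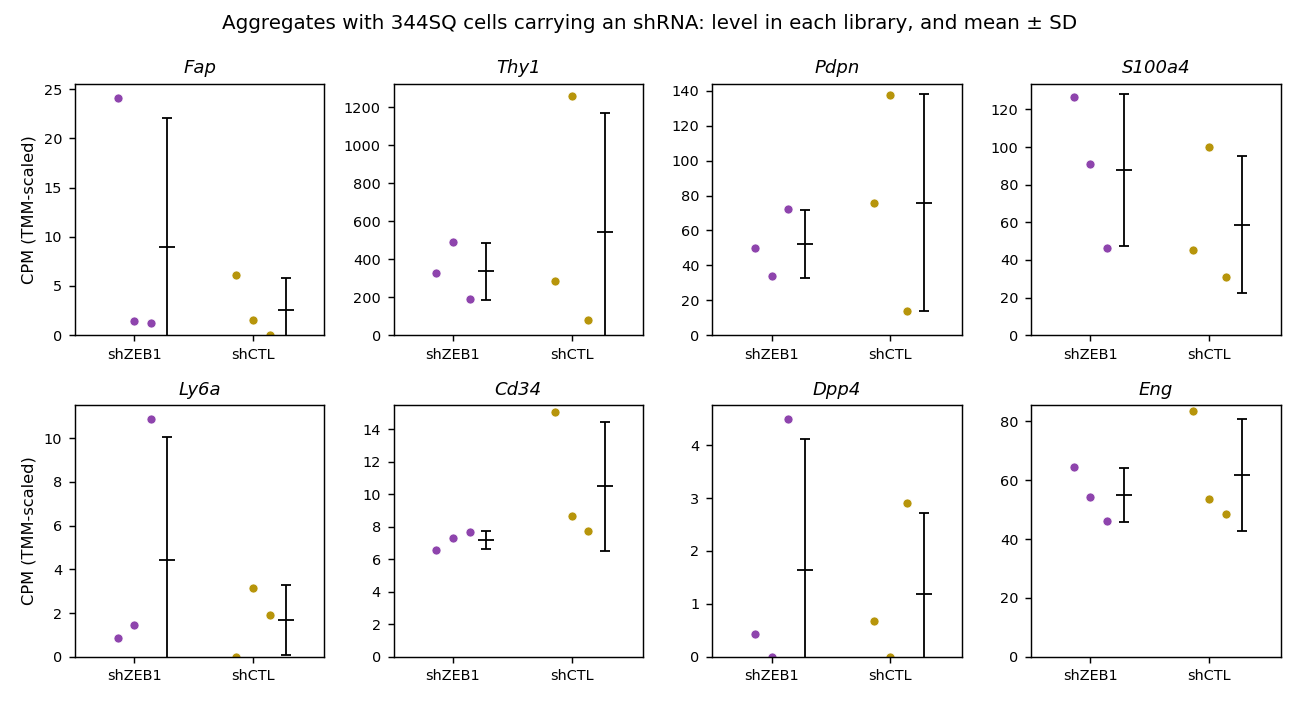
Level of each gene in TMM-scaled CPM on the y axis in aggregates with shZEB1 or shCTL 344SQ cells (n = 3 each). Points are libraries and the bars mean ± SD, cut at 0. The spread within shCTL is wide for Thy1 (78.3 to 1256 CPM) and Pdpn (13.5 to 138 CPM).

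A wider set of 38 fibroblast and CAF surface genes, none of them among the 8 markers, was followed for comparison. In the aggregates 28 were tested, of which 3 were higher and 1 lower with 344SQ, and 9 were higher and 6 lower with 393P. Of all genes tested there, 5.98% were called with 344SQ, 10.9% with 393P and 4.19% between the lines. Gpc1, a heparan sulfate proteoglycan of the membrane, was higher with both, at 157 ± 14.7 CPM with 344SQ, 193 ± 30.5 CPM with 393P and 57.1 ± 15.1 CPM in CAFs alone (log2 changes of 1.48 ± 0.19, adjusted p = 5.23e-07, and 1.79 ± 0.19, adjusted p = 1.61e-09). Pdgfrb, the PDGF receptor beta, was higher with 393P (1612 ± 304 against 372 ± 23.2 CPM, log2 change 2.12 ± 0.17, adjusted p = 4.81e-13). With 344SQ against 393P, 4 genes were higher and 4 lower, among them Pdgfrb (480 ± 52.8 against 1612 ± 304 CPM, log2 change -1.75 ± 0.16, adjusted p = 1.47e-10) and endosialin, encoded by Cd248 (205 ± 48.2 against 451 ± 90.4 CPM, log2 change -1.14 ± 0.17, adjusted p = 6.40e-06), both lower with 344SQ like Fap. Nt5e, the ectonucleotidase CD73, was higher with 344SQ like Pdpn (22.7 ± 5.92 against 4.96 ± 4.31 CPM, log2 change 2.27 ± 0.49, adjusted p = 0.00191).

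Of the 38, 34 were tested in the Boyden data, of which 6 were higher and 9 lower with 344SQ, and 4 were higher and 7 lower with 393P. Of all genes tested there, 14.7% were called with 344SQ, 15.6% with 393P and 4.02% between the lines. Pdgfra, the PDGF receptor alpha, was higher with both lines, at 237 ± 8.60 CPM with 344SQ, 220 ± 9.49 CPM with 393P and 131 ± 5.99 CPM in CAFs alone (log2 changes of 0.86 ± 0.06, adjusted p = 1.32e-12, and 0.75 ± 0.05, adjusted p = 1.30e-10). Itga1, an integrin subunit for collagen, was lower with both, at 14.5 ± 2.42, 16.6 ± 2.502 and 32.4 ± 3.41 CPM (log2 changes of -1.15 ± 0.12, adjusted p = 1.62e-08, and -0.96 ± 0.11, adjusted p = 3.81e-07). With 344SQ against 393P, 8 were higher and 0 lower, led by Vcam1, a leukocyte adhesion molecule (731 ± 29.8 against 461 ± 44.6 CPM, log2 change 0.66 ± 0.06, adjusted p = 6.12e-09), and with Nt5e again among them (22.7 ± 1.38 against 13.7 ± 2.66 CPM, log2 change 0.73 ± 0.15, adjusted p = 0.00359). The median log2 change of the tested genes of this set was 0.20 and 0.11 in the aggregates with 344SQ and 393P, and 0.05 and -0.13 in the chamber. Over all genes the medians were -0.007 and -0.002 in the aggregates, and 0.006 and 0.001 in the chamber.

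The genes whose pattern over the 8 group means was most like those of Fap, Thy1 and Pdpn were found by Pearson correlation of log2(CPM + 1), centred within each table, among 6815 genes tested in all 3 tables. Those most like Fap were Loxl3 (r = 0.993), Ano1 (r = 0.991) and Ifi204 (r = 0.990). Fap itself did not pass the low-count filter in the shRNA table, where shZEB1 replicate 1 held 55 of the 58 counts of its group. Those most like Thy1 were Mospd2 (r = 0.995), Apc (r = 0.995) and Gltscr1 (r = 0.993), and those most like Pdpn were Pdpk1 (r = 0.992), Ambra1 (r = 0.976) and Ndufv3 (r = 0.976). Over the 8 group means Fap spanned 3.49 log2 units and Ano1, the nearest of its set in size, 2.92, while Pdpn spanned 1.13 and its 3 neighbours 0.247 to 0.352. These correlations rest on 8 points that share libraries within a table, and describe likeness of pattern only.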

How the data were processed

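The authors deposited raw counts per gene and library, made with STAR and HTSeq on mm10 per the submitters' processing notes; neither versions, annotation release, strand setting nor filters were stated there. Positions, exon lengths and overlaps came from GENCODE M21 on GRCm38, the same assembly as mm10, matched by gene ID without version for 48058 of 48440 genes.

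Technical libraries were summed to 1 per Boyden replicate. A separate model per table was fitted with edgeR 4.0.16 in R 4.3.3: filterByExpr, TMM, a mean per group, and 2-sided quasi-likelihood tests with Benjamini-Hochberg adjustment over all genes tested (7992 for aggregates, 7801 for shRNA, 14040 for Boyden). Differences between formats came from a joint fit of 15193 genes, which estimated the spread of a gene over both formats together. Its biological coefficient of variation was 9.50%, nearer to the 8.58% of the Boyden table than to the 16.2% of the aggregate table. The p-values of these differences may therefore understate the spread of the aggregates. The script was tested on simulated data. Comparisons with CAFs alone share those libraries. Marker sums were scaled by total counts, other levels by TMM. Intervals and limits for counts of 0 (3 counts) cover counting error only.

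The text names all 8 markers, up to 3 called genes per list and comparison, and the 3 genes nearest in pattern to Fap, Thy1 and Pdpn; examples were then chosen from these. The markers and lists were chosen with earlier results of these data known. Alternatives were no filter, RLE size factors, only the groups compared, DESeq2 1.42.0, a replicate block, single technical libraries, and each replicate left out. Removal of rRNA-like and mitochondrial genes, and of the carcinoma-rich shRNA libraries, was added after seeing the data. Figures were drawn with matplotlib 3.10.9.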

Additional observations from a re-analysis of the deposited data

Results flagged for a closer look

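The effects of the lines differed between the culture formats for 3 of the 7 markers tested, by the test of the difference itself in the joint fit (8.97% of all genes were called for 393P and 4.78% for 344SQ, and Dpp4 was not tested). For 344SQ, the log2 change in the aggregates minus that in the Boyden chamber was 2.40 for Thy1 and -2.27 for Cd34. For 393P it was 3.02 for Fap, 2.41 for Thy1 and -4.20 for Cd34. Format was not varied within 1 experiment, so it cannot be told apart from the table each format was deposited in, its depth and its library preparation. In 24 sets of 5 values (8 markers in each of the 3 Boyden groups), none held a replicate that stood apart from the rest by Dixon's test, which chance flags in about 1 of 20 sets.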

How the results depend on the processing

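Of 19 marker changes called, 8 were called in every alternative run: Fap and Cd34 with 393P and Fap between the lines in the aggregates, and the 5 differences between formats. The alternatives were not the same for all: 12 for each aggregate call, 19 for each chamber call and 21 for each difference between formats. Only the chamber calls were rerun on single technical libraries, of 289848 to 3785291 counts each. The share of calls kept therefore does not compare the steadiness of the tables. The replicate numbers showed no pairing of the samples: deviations of same-numbered samples correlated by -0.0299 to 0.0717 in the aggregates, -0.0299 to 0.126 in the shRNA table and -0.303 to 0.265 in the Boyden table. Differently numbered samples of different groups correlated by -0.0826 to 0.0804, -0.150 to 0.0849 and -0.366 to 0.414 in the same tables. Deviations shared between Boyden groups thus did not follow the numbering. With the replicate block, Fap with 344SQ in the aggregates was called (1.15, adjusted p = 0.0424), Thy1 between shZEB1 and shCTL was 0.0392 in place of -0.69, and 1 gene in place of 0 was called in the shRNA table. Fap was also called without rRNA-like and mitochondrial genes, with 344SQ (1.13, adjusted p = 0.0487).
Counts of markers called moved by over 1.5 times in these settings. DESeq2 called 1 marker in place of 2 with 344SQ against CAFs alone and with 344SQ against 393P in the aggregates. Technical library 1 alone called 1 with 344SQ, 0 with 393P and 0 between the lines; library 2 alone called 0 in each; library 3 alone called 0 with 344SQ. With each replicate left out, the counts ran over 0 to 2 with 344SQ, 2 to 4 with 393P and 1 to 3 between the lines in the aggregates, 0 to 0 in the shRNA table, and 2 to 3, 2 to 4 and 1 to 2 in the chamber. Changes that turned sign were uncalled, except Pdpn with 393P in the chamber (0.0028 with technical library 1 alone). Between the lines in the chamber, library 1 alone gave log2 changes of 0.24 for S100a4, 0.0200 for Ly6a and -0.26 for Cd34, library 2 alone 0.15 for Thy1 and 0.10 for S100a4, and library 3 alone 0.0022 for Thy1 and 0.26 for Ly6a. Library 2 alone gave 0.21 for Thy1 with 344SQ, and 0.0682 for Thy1 and 0.10 for Ly6a with 393P.

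With 1 replicate left out, log2 changes crossed 0 in the aggregates for S100a4 with 393P (-0.17 to 0.30) and, between the lines, for Thy1 (-0.51 to 0.28) and Eng (-5.37e-05 to 0.63). They crossed 0 in the shRNA table for Thy1 (-1.20 to 0.88), Pdpn (-1.02 to 0.22) and Eng (-0.31 to 0.14). In the chamber this held for Eng with 344SQ (-0.0296 to 0.24) and, between the lines, for Fap (-0.0735 to 0.19), Thy1 (-0.26 to 0.0231) and Cd34 (-0.10 to 0.11). Between formats it held for S100a4 (-0.0323 to 0.42) and Ly6a (-1.36 to 1.11) for 344SQ, and for Pdpn (-0.65 to 0.0198) and Eng (-0.53 to 0.10) for 393P. The cause was not tested. Without the low-count filter 60 genes were called in the shRNA table, none of them a marker. Dpp4 in all tables, and Ly6a in the aggregate table, had at most 7 counts per library or replicate, which limits what could be detected there.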
